A study of Mus musculus with 18 samples.

Results

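The genes described here encode the proteins of the cytosolic ribosome. They were chosen by symbol: Rpl or Rps with a number and at most 1 of the letters a, l or x, plus Rplp0, Rplp1, Rplp2, Rpsa and Rpl36al. Of 82 symbols with such a name, 78 reached a mean of at least 10 raw counts per library in microglia or in astrocytes, out of 24421 symbols in the tables. These 78 comprised 46 genes of the large subunit and 32 of the small subunit. The mean count that chose them pools all genotypes, and it is given as a description only.

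The libraries came from 9 mice of the C57BL/6j strain, 4 of the genotype WT and 5 of the genotype APP-NLGF (APP below), and each mouse gave 1 library of sorted microglia and 1 of sorted astrocytes. In APP-NLGF mice the endogenous App gene carries a humanised amyloid-beta sequence with disease mutations, so that App stays under its own promoter and amyloid plaques form in the brain. Both genotypes carry the tag C3WT in their library names, and the labels used here state no ages. The sexes were unequal: among WT mice only replicate 1 was female, and among APP mice only replicate 1 was male. Each comparison was therefore adjusted for sex, a term that rests on 1 mouse of the rarer sex in each genotype. With that term, a fit without WT replicate 1 sets the single APP male (APP replicate 1) against the 3 WT males, and a fit without APP replicate 1 sets the 4 APP females against the single WT female (WT replicate 1). The mice were separate animals, labelled as not treated.

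A cytosolic ribosome joins a small subunit, which reads the mRNA, to a large subunit, which makes the peptide bond. Nearly every ribosomal protein is present in a single copy per particle, and the proteins are made in similar amounts. Most of their mRNAs begin with a C followed by a run of pyrimidines (C or T in the DNA), the terminal oligopyrimidine or TOP motif, through which mTORC1 and the RNA-binding protein Larp1 control their translation. Microglia are the resident macrophages of the brain, which gather around amyloid plaques and change their gene expression there, and astrocytes are the glial cells that support neurons and contact blood vessels.

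The starts of 7 of the genes are shown. Some have a pyrimidine run at the annotated start and some do not. Their log2 fold changes in microglia, APP against WT, ran from -0.08 (Rps27) to 1.62 (Rpl41), as described below. Each runs from 60 bases before to 20 bases from the start annotated by RefSeq (GRCm38.p6), in the direction of transcription. Capitals mark the longest run of C and T that opens with a C within 5 bases of the start. Rps6 (chr4:86857348-86857427, minus strand), Rpl35 (chr2:39005112-39005191, minus strand), Rpl38 (chr11:114668520-114668599, plus strand), Rps15a (chr7:118116128-118116207, minus strand) and Rps27 (chr3:90213629-90213708, minus strand) have a C at the start itself and at least 4 further pyrimidines. Rpl41 (chr10:128549149-128549228, minus strand) and Rpsa (chr9:120127706-120127785, plus strand), which had the largest rises in microglia, do not. The annotated start need not be the start used in these cells, so this does not show that their mRNAs lack the motif.
Rps6: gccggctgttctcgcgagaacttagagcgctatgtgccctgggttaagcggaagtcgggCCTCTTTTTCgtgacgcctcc
Rpl35: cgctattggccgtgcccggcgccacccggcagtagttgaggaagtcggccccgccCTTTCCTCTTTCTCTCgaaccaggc
Rpl38: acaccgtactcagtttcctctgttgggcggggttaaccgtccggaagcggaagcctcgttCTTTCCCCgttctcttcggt
Rps15a: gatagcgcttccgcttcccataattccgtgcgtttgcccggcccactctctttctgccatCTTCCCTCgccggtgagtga
Rps27: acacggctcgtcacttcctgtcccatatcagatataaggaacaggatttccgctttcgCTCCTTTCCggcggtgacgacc
Rpl41: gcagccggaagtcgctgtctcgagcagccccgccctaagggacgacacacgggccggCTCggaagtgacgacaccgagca
Rpsa: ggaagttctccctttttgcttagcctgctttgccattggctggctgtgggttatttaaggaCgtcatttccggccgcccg

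Of the 78 genes, 57 had promoter windows in the RefSeq table, 68 windows of 300 bases in all (250 before the start and 50 from it on). A C at the annotated start followed by at least 4 more C or T was present in 13 of the 68 windows (19.12%), against 2.51% of the 32851 windows of all genes and 0 of 74 windows of mitochondrial ribosomal protein genes. A C within 5 bases of the start that opens a run of at least 8 C or T was present in 20 windows (29.41%), against 4.37% of all windows. The heptamer CTTCCGG, searched on both strands, was found in 35.29% of the windows, in 33.78% of the windows of mitochondrial ribosomal protein genes and in 8.86% of all windows. CTCTTTC, also on both strands and able to overlap a pyrimidine run, was found in 27.94%, 5.41% and 8.16% in the same order. GGGCGG was found in 61.76% and TATAAA in 8.82% of the windows, against 35.66% and 13.62% of all windows, both strands counted. These shares describe letters in the windows and nothing about which factors bind there.

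Total counts ranged from 8834866 to 18363154 in microglia and from 10569776 to 22522407 in astrocytes. The 10 microglial markers summed to between 29889 and 40745 CPM (counts scaled to a common library total) in the microglia libraries, and the 10 astrocyte markers to between 23802 and 45772 CPM in the astrocyte libraries, and all were detected in the cell type they mark. App, which the knock-in leaves in place and which therefore checks no label, had 282 ± 15.2 CPM (SD, n = 4) in WT microglia and 386 ± 38.4 CPM (SD, n = 5) in APP microglia. C3, the complement gene whose symbol appears in the library tag, was detected in all groups and had 3.55 ± 0.75 CPM in WT and 22.8 ± 4.9 CPM in APP microglia. The libraries are bulk samples, so fewer cells of a type and less RNA per cell cannot be told apart.

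Ribosomal protein mRNA took a larger part of the counts in microglia of APP mice than in those of WT mice. The 78 genes together took 0.776 ± 0.0722% (SD, n = 4) of all counts in WT microglia and 1.75 ± 0.139% (SD, n = 5) in APP microglia. On the TMM scale within the cell type, their summed level was 7026, 7399, 8164 and 8003 CPM in WT replicates 1 to 4, and 15103, 18564, 17319, 17778 and 20014 CPM in APP replicates 1 to 5. The lowest APP library thus stood well above the highest WT library. The large subunit took 0.443 ± 0.0375% and 1.02 ± 0.0763% of the counts in WT and APP, and the small subunit 0.333 ± 0.0349% and 0.733 ± 0.0634%. The ratio of large to small subunit counts was 1.34 ± 0.0335 in WT and 1.39 ± 0.0241 in APP. No test was made on these sums, because their members were chosen with results known.

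**Figure D1:**
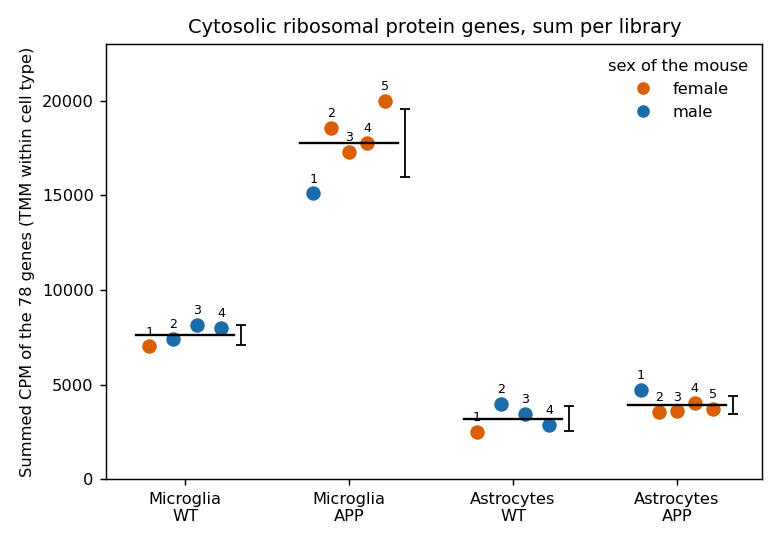
Summed CPM (TMM within the cell type) of the 78 ribosomal protein genes in each library, by cell type and genotype; points are mice, numbered by replicate and coloured by sex, horizontal lines are group means and the bars beside them span 1 SD to either side. The 5 APP microglia libraries lie between 15103 and 20014 CPM, above the 4 WT libraries at 7026 to 8164 CPM, while in astrocytes WT replicate 2 at 4002 CPM lies within the APP range.

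Gene by gene, 74 of the 78 rose in APP microglia and 0 fell (edgeR quasi-likelihood F-test, Benjamini-Hochberg adjusted over 13116 genes, called at an adjusted p under 0.05). Of all genes tested, 19.1% were called up and 19.2% were called down. The median log2 fold change of the 78 genes was 1.16 (2.23-fold), against 0.01 for all genes tested, and 64 of the called genes reached a log2 fold change of at least 1. At an unadjusted p under 0.05 the counts were the same, 74 up and 0 down. In each of the 74 called genes the lowest APP library exceeded the highest WT library, an arrangement found in 19.8% of all genes. The rises were alike in size: the middle of the distribution over the genes ran from 1.07 to 1.28 on the log2 scale (quartiles), and the median SE of a single gene was 0.12. Of the large subunit, 44 of 46 genes were called with a median of 1.19, and of the small subunit 30 of 32 with a median of 1.15 (0 down in both).

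The acidic stalk of the large subunit, which recruits elongation factors to the ribosome, consists of Rplp0, Rplp1 and Rplp2. Rplp1 had 321, 362, 391 and 355 CPM in the WT and 683, 872, 837, 811 and 904 CPM in the APP microglia libraries. Rplp0 had 243, 243, 271 and 257 CPM in WT and 556, 545, 598, 583 and 700 CPM in APP. Rplp2 had 181, 190, 215 and 211 CPM in WT and 380, 458, 394, 449 and 473 CPM in APP. The groups did not overlap in any of them, and their log2 fold changes were 1.16 ± 0.12 (SE), 1.22 ± 0.10 and 1.09 ± 0.11 for Rplp1, Rplp0 and Rplp2. The adjusted p-values (edgeR) were 1.34e-05, 3.84e-06 and 1.31e-05. Rpl12, which sits at the base of the stalk, had 135, 142, 148 and 158 CPM in WT and 310, 393, 441, 428 and 509 CPM in APP, a log2 fold change of 1.39 ± 0.14.

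Other large subunit proteins were among the strongest risers. Rpl41, the smallest ribosomal protein, had 42.4, 50.1, 58.6 and 53.9 CPM in WT and 127, 177, 172, 154 and 192 CPM in APP. Its change of 1.62 ± 0.16 (SE) on the log2 scale, with an edgeR adjusted p of 1.21e-05, was the largest of the 78 genes. Rpl35, which lies at the exit of the tunnel for the growing peptide, had 18.6, 20.8, 24 and 21.1 CPM in WT and 55.9, 59.6, 60.4, 61.1 and 66.9 CPM in APP (log2 1.53 ± 0.10). The APP libraries were thus within a narrow band that lay far above the WT libraries. Rpl5, which binds the 5S ribosomal RNA, had 82.5, 75.7, 85.3 and 83.5 CPM in WT and 206, 211, 206, 227 and 237 CPM in APP (log2 1.38 ± 0.08). Rpl23 rose by 1.39 ± 0.12 on the log2 scale, from a mean of 133 ± 10.8 to 379 ± 51.8 CPM.

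In the small subunit, Rpsa, also known as a precursor of a laminin receptor, had 135, 151, 155 and 148 CPM in WT and 397, 452, 406, 425 and 531 CPM in APP. Its change on the log2 scale was 1.57 ± 0.11 (SE), with an edgeR adjusted p of 1.3e-06. Rps19, a gene mutated in the inherited anaemia of Diamond and Blackfan, had 52.2, 66.8, 69.3 and 64.1 CPM in WT and 152, 185, 140, 149 and 189 CPM in APP (log2 1.42 ± 0.14). Rps28 had 12.8, 18.7, 21.4 and 16.7 CPM in WT and 37.2, 53.3, 37.8, 42.2 and 53.2 CPM in APP (log2 1.39 ± 0.20). In all 3 of these genes every APP library was above every WT library.

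Rps6, the ribosomal protein phosphorylated by the S6 kinases below mTORC1, had 74.9, 77.1, 84.8 and 82.2 CPM in WT and 181, 189, 197, 205 and 222 CPM in APP (log2 1.3 ± 0.09, adjusted p 9.66e-07, edgeR). Rps27a, made as a fusion with ubiquitin, had 58.7, 74.1, 91.5 and 85.8 CPM in WT and 133, 193, 172, 159 and 195 CPM in APP (log2 1.14 ± 0.18). The X-linked genes rose too, with log2 fold changes of 1.07 ± 0.08 for Rpl10, 1.39 ± 0.21 for Rpl36a, 1.32 ± 0.09 for Rpl39 and 1.16 ± 0.11 for Rps4x. Rps4x had 258, 276, 294 and 289 CPM in WT and 562, 579, 607, 682 and 733 CPM in APP. The smallest called rises were those of Rps15a (0.63 ± 0.11) and Rps9 (0.72 ± 0.15), chosen here after their values were seen. Rps9 had 172, 190, 221 and 199 CPM in WT and 272, 398, 306, 311 and 375 CPM in APP. Without WT replicate 1 the log2 fold change of Rps9 was 0.42 with an adjusted p of 0.0974 (edgeR).

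The 4 genes that were not called in microglia were Rps27, Rpl34 and Rpl30, which had few reads, and Rps4l, a copy of Rps4x. Rps27 had 2.71, 2.73, 2.16 and 3.66 CPM in WT and 2.34, 2.8, 2.98, 3.1 and 2.9 CPM in APP (log2 -0.08 ± 0.28). Rpl34 had between 0.179 and 1.84 CPM over all microglia libraries (log2 -0.22 ± 0.52), and Rpl30 between 0.292 and 1.19 CPM (log2 -0.62 ± 0.60). These levels correspond to 20 to 51, 2 to 20 and 4 to 18 reads per library. Rps27, Rpl34 and Rpl30 encode ordinary subunits of the ribosome, yet their levels were below those of all other genes of the set, and 98.65%, 50.58% and 76.39% of the 50-base stretches of their transcripts occur in other annotated genes, mostly pseudogenes. How reads with several matches were counted is not known here, so the levels of these 3 genes are uncertain. Rps4l had 7.36, 10.5, 11 and 9.2 CPM in WT and 7.02, 6.45, 7.65, 9.69 and 4.85 CPM in APP (log2 -0.29 ± 0.24, adjusted p 0.379, edgeR), with overlapping groups.

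Rpl30 and Rps27 passed the count minimum in microglia alone. Rpl30 and Rpl34 lay just inside the minimum, with means of 10.2 and 14.9 raw counts per microglia library and 7.11 and 11.8 per astrocyte library, and Rps27 followed with 36.1 and 9.78. Just outside it lay Rpl39l with 5.56 and 0.556, Rpl3l with 0.444 and 1.78, Rpl26 with 0.444 and 0.222 and Rpl10l with 0.111 in both. Rpl26 is an ordinary large subunit gene and had 0 to 2 reads in every library. Of its 50-base stretches, 71.28% occur in other genes.

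**Figure D2:**
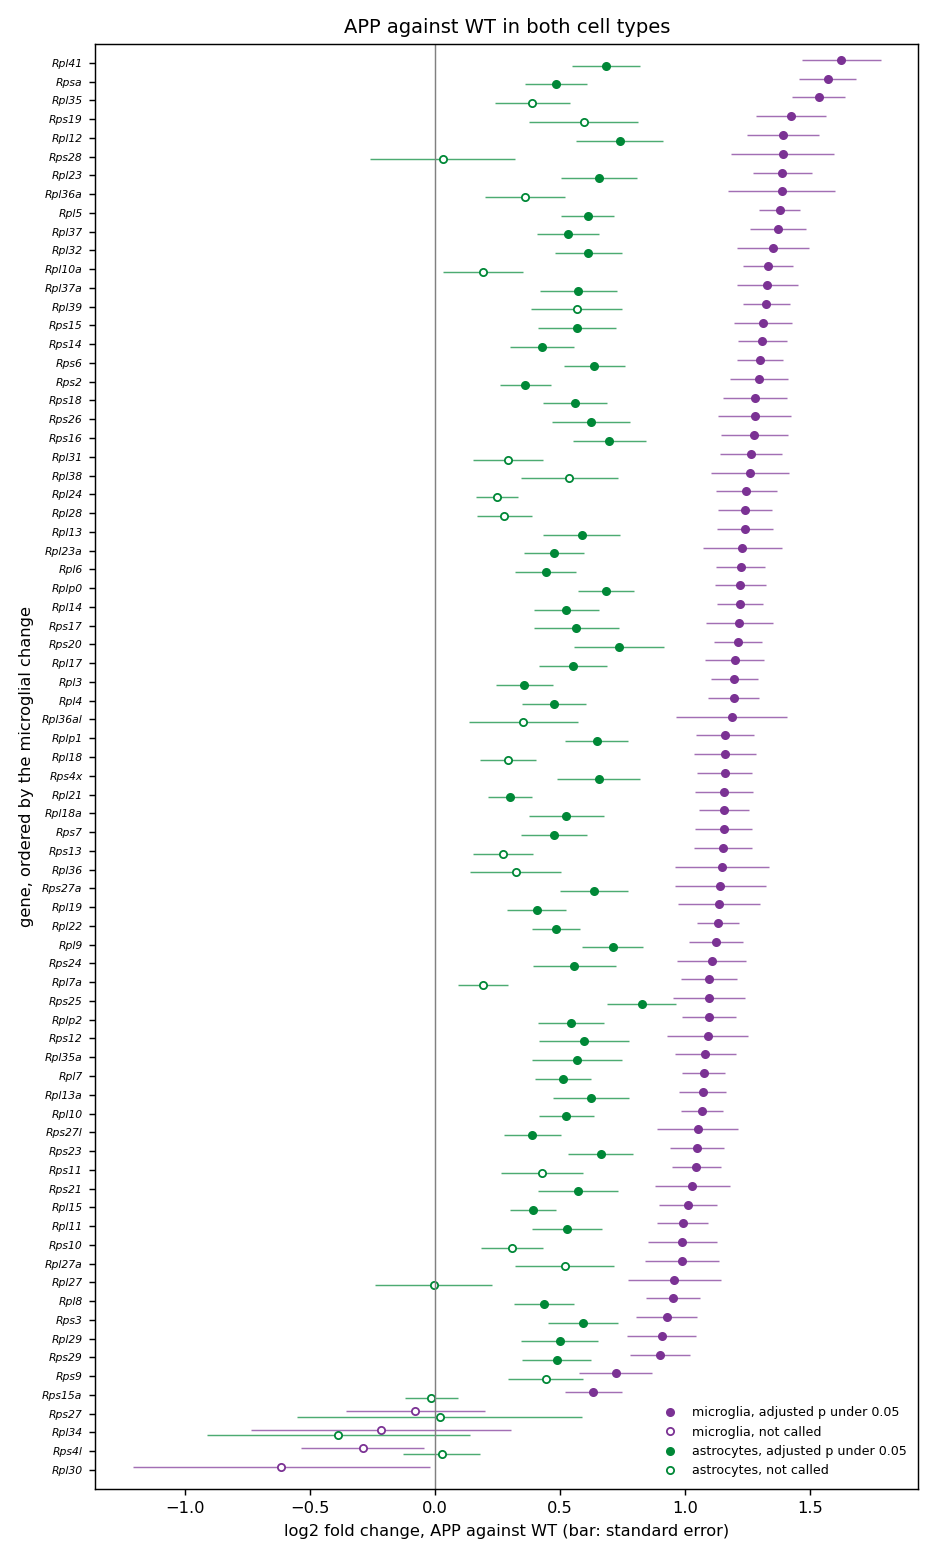
Log2 fold change, APP against WT, of 76 of the 78 genes in microglia (purple) and astrocytes (green), ordered by the microglial change; bars are standard errors, filled points passed an adjusted p under 0.05 (edgeR) and open points did not. Of the microglial points, 72 lie between 0.63 and 1.62, and the astrocyte points of the same genes lie lower, with a median of 0.52 over the 77 genes tested there.

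The rise in microglia kept 71 to 74 calls in every alternative fit tried, and its size depended on which mice of the rarer sex were kept. Leaving out WT replicate 1, the only WT female, gave 71 calls and a median log2 fold change of 0.92, and leaving out APP replicate 1, the only APP male, gave 74 calls and a median of 1.40. Each of these values is a contrast with 1 mouse in an arm. Without the sex term there were 74 calls with a median of 1.21. In that fit 75 of the 78 genes had an unadjusted p under 0.05 (edgeR), beside 6787 of all 13116 genes tested. Several other quantities moved with the genotype in the same libraries. The 10 endothelial markers summed to 235 to 280 CPM in WT and 439 to 562 CPM in APP microglia, and the 10 mural cell markers to 30.5, 228, 206 and 32.2 CPM in WT and 260 to 313 CPM in APP, with no marker of either list at 0 in a whole group. The 7 border macrophage markers summed to 1695 to 1813 CPM in WT and 323 to 605 CPM in APP. Rn45s, a ribosomal RNA precursor, took 5.74 to 9.76% of counts in WT and 3.20 to 6.46% in APP, and Malat1, a nuclear RNA, 2.71 to 2.96% and 1.36 to 1.97%. Their part in the rise was not tested. Without WT replicates 1 and 4, the 2 low in mural markers, 72 genes were called with a median of 0.93.

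Of 18 other TOP mRNA and elongation genes, 16 rose and 0 fell, with a median log2 fold change of 1.00, and 15 rose without WT replicate 1. In the main fit 19.1% of all genes rose and 19.2% fell. Eef1a1, which delivers aminoacyl-tRNA to the ribosome, went from 1756 ± 105 to 4660 ± 460 CPM (log2 1.37 ± 0.12, adjusted p 4.13e-06, edgeR). Pabpc1, the cytoplasmic poly(A)-binding protein, rose by 1.35 ± 0.13 on the log2 scale, Npm1, a nucleolar chaperone, by 1.38 ± 0.11, Eif4b, an initiation factor, by 1.20 ± 0.10, Eif3h, an initiation factor subunit, by 1.16 ± 0.09, Eef2, the translocase, by 1.00 ± 0.12 and Tpt1, a short abundant TOP mRNA, by 1.00 ± 0.09. The 2 that did not pass were Gas5, a host gene of small nucleolar RNAs with a log2 value of 0.08 ± 0.15, and Hnrnpa1 with 0.55 ± 0.35. Of 6 related genes tested that the naming rule misses, 4 rose, among them Fau, a ribosomal protein made as a fusion with a ubiquitin-like protein, by 1.07 ± 0.11, Rps3a1 by 1.16 ± 0.08 and Rpl22l1 by 1.17 ± 0.14. Rpl7l1 fell, and Rps19bp1, which is no subunit of the ribosome, had 0.20 ± 0.26.

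Of 46 ribosome biogenesis genes tested in microglia, 9 rose and 1 fell (19.6% and 2.17%, beside 19.1% and 19.2% of all genes), with a median log2 fold change of 0.09. Those that rose included Rrp1, which processes ribosomal RNA, by 0.64 ± 0.07, Polr1c, a subunit of RNA polymerases I and III, by 0.59 ± 0.09, and Myc, a transcription factor of growth genes, by 0.44 ± 0.08. Of 75 mitochondrial ribosomal protein genes, 15 rose (20%) and 1 fell, with a median of 0.21, and without WT replicate 1 the numbers were 5 of 76 and 1. The share of rises in both lists was thus about that over all genes. Mrpl33 rose by 1.35 ± 0.21, Mrpl30 by 1.08 ± 0.14 and Mrpl52 by 0.91 ± 0.15. Of 23 genes of mTORC1 and TOP translation control, 6 rose and 3 fell, beside the same 19.1% and 19.2% of all genes. Their median was 0.05 (-0.04 without the sex term). Rptor, the scaffold of mTORC1, fell by 0.62 ± 0.07 on the log2 scale and Mtor, its kinase, fell by 0.45 ± 0.09, whereas Rragc and Lamtor4, which recruit mTORC1 to lysosomes, rose by 0.46 ± 0.07 and 0.76 ± 0.12, and Larp1 rose by 0.25 ± 0.07. Of 14 ribosome quality control genes, 0 rose (edgeR, 2 at an unadjusted p under 0.05) and 3 fell, where 19.2% of all genes fell. Those that fell were Ltn1 (-0.40 ± 0.09), Ascc3 (-0.29 ± 0.09) and Eif2ak4 (-0.33 ± 0.10). So few calls are not read as a result about the mTORC1 or quality control genes. Each list is described by its counts only, and no test set 1 list against another.

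**Figure D3:**
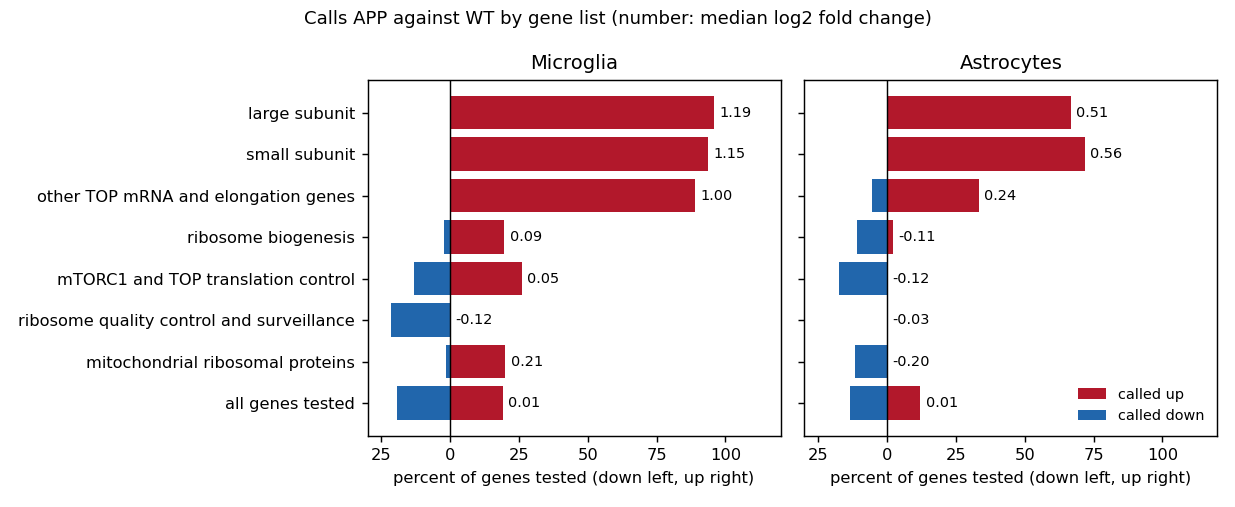
Percent of tested genes called up (red, to the right of 0) and called down (blue, to the left) in APP against WT for each gene list, in microglia and astrocytes; the number beside each bar is the median log2 fold change of the list. Both subunits and the other TOP and elongation genes reach medians of 1.00 to 1.19 in microglia, while the remaining lists stay between -0.12 and 0.21.

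In astrocytes the change was smaller, and the number of calls depended on the mice of the rarer sex. The 78 genes took 0.303 ± 0.0800% (SD, n = 4) of counts in WT and 0.416 ± 0.0529% (SD, n = 5) in APP astrocytes. Their summed level was 2518, 4002, 3443 and 2867 CPM in WT replicates 1 to 4 and 4735, 3585, 3593, 4057 and 3725 CPM in APP replicates 1 to 5, so that WT replicate 2 lay inside the APP range. In the fit with sex as a covariate, 53 of the 77 genes tested rose and 0 fell (edgeR, adjusted over 14957 genes), where 12.1% of all genes were called up and 13.5% down. At an unadjusted p under 0.05 the counts were 65 up and 0 down. The median log2 fold change was 0.52 (1.44-fold), against 0.01 for all genes tested, and 0 genes reached a log2 fold change of 1. The APP libraries stood above the WT libraries without overlap in 1 of the 77 genes, Rpl23a, an arrangement found in 9.91% of all genes. Of the large subunit, 30 of 45 genes were called with a median of 0.51, and of the small subunit 23 of 32 with a median of 0.56.

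Among the largest called rises in astrocytes were those of Rps25 (0.83 ± 0.14, adjusted p 0.00721, edgeR), Rpl12 (0.74 ± 0.17), Rps20 (0.73 ± 0.18) and Rpl9 (0.71 ± 0.12), followed by Rps16 (0.70 ± 0.15), Rplp0 (0.68 ± 0.11), Rpl41 (0.68 ± 0.14), Rps23 (0.66 ± 0.13) and Rpl23 (0.65 ± 0.15). Rps25, a small subunit protein that some viral RNAs need to recruit ribosomes, had 9.14, 16.6, 12.1 and 12.3 CPM in WT and 24.5, 14.4, 16.5, 16.7 and 16.5 CPM in APP. Rplp0 had 79.3, 123, 111 and 95.6 CPM in WT and 175, 116, 137, 140 and 119 CPM in APP. Rps6 had 27.9, 51.7, 42 and 37.6 CPM in WT and 63.7, 46.8, 43, 48.8 and 45.9 CPM in APP. In these 3 genes WT replicate 1 was lowest and APP replicate 1 highest, and the groups overlapped. Over the 78 genes, WT replicate 1 was the lowest astrocyte library in 60 and APP replicate 1 the highest in 63. These are the mice of the rarer sex in their genotypes. The same counts over all genes are not given here, so it is not shown whether this is particular to ribosomal protein genes.

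The number of astrocyte calls moved far more than their size. Without WT replicate 1, where 1 APP male is set against 3 WT males, 0 of 78 genes were called by edgeR with a median log2 fold change of 0.44, 38 had an unadjusted p under 0.05 and 74 had a log2 value above 0. In that fit 28 genes were called up and 6 down among all 15129 tested, so it leaves few calls for any gene. Without APP replicate 1, 21 were called with a median of 0.56, and over all single libraries left out the median stayed between 0.44 and 0.56. Without the sex term 2 were called, with a median of 0.29. In that fit 24 of 77 ribosomal protein genes had an unadjusted p under 0.05 (edgeR), beside 5797 of all 14957 genes tested. Both directions are counted, and the share of the ribosomal protein genes was below that of all genes. With DESeq2 on all libraries 57 ribosomal protein genes were called, and with limma voom 52. Markers of several cell types moved with the same libraries or with the genotype. The 10 endothelial markers summed to 1010, 4686, 3559 and 913 CPM in WT and 4466, 4725, 3908, 5244 and 3372 CPM in APP astrocytes, so WT replicates 1 and 4, which were lowest in endothelial markers, were also lowest in ribosomal protein mRNA. The 10 mural markers summed to 1677, 2660, 2638 and 1011 CPM in WT and 2851 to 3478 CPM in APP. The 10 microglial markers summed to 116 to 137 CPM in WT and 267 to 350 CPM in APP astrocytes. The 10 astrocyte markers summed to 45772, 33482, 32527 and 43950 CPM in WT and 23802, 26801, 27691, 28222 and 27875 CPM in APP astrocytes, without overlap, and APP replicate 1 was the lowest. The 6 markers of ependyma and choroid plexus summed to 110, 1167, 702 and 423 CPM in WT and 1264, 1067, 1240, 724 and 788 CPM in APP, with the lowest and highest values in the same libraries as for the ribosomal protein genes. Rn45s took 2.84 to 12.5% of the counts in WT and 2.60 to 5.26% in APP. No marker of these 5 lists was at 0 in a whole group. Their part in the astrocyte result was not tested. Without WT replicates 1 and 4 together, 0 genes were called by edgeR, 31 had an unadjusted p under 0.05, and the median was 0.33.

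**Figure D4:**
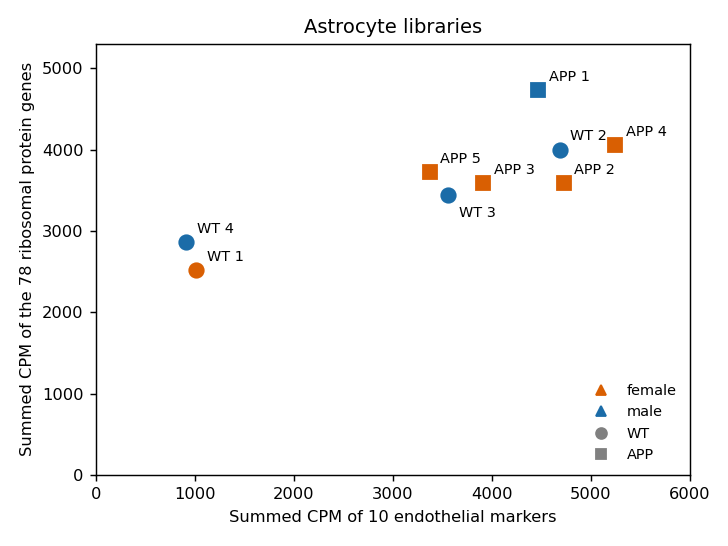
Summed CPM of the 78 ribosomal protein genes (vertical axis) against summed CPM of 10 endothelial markers (horizontal axis) in the 9 astrocyte libraries; circles are WT, squares are APP and colour gives the sex of the mouse. WT replicates 1 and 4, at 1010 and 913 CPM of endothelial markers, have the lowest ribosomal sums, 2518 and 2867 CPM, and APP replicate 1, the APP male, has the highest, 4735 CPM.

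Companion genes in astrocytes did not repeat the microglial counts. Of the 18 other TOP mRNA and elongation genes, 6 rose and 1 fell, where 12.1% of all genes rose and 13.5% fell. Their median log2 fold change was 0.24. Eif4b rose by 0.47 ± 0.11, Pabpc1 by 0.59 ± 0.14 and Tpt1 by 0.76 ± 0.21, and Gas5 fell by 0.59 ± 0.13 on the log2 scale. Of 46 ribosome biogenesis genes 1 rose and 5 fell (10.9%, median -0.11), among them Rrs1 (-0.71 ± 0.10), Nop56 (-0.52 ± 0.11) and Nmd3 (-0.39 ± 0.09), which act in the assembly or export of pre-ribosomes. Of 77 mitochondrial ribosomal protein genes 0 rose (1 at an unadjusted p under 0.05, edgeR) and 9 fell (11.7%, median -0.20), with Mrpl15 at -0.54 ± 0.08, Mrpl3 at -0.40 ± 0.08 and Mrps14 at -0.42 ± 0.09. Of 23 mTORC1 and translation control genes 0 rose (0 at an unadjusted p under 0.05, edgeR) and 4 fell (median -0.12). Of all genes, 13.5% fell. The 4 that fell included Mlst8 (-0.70 ± 0.11), Larp4 (-0.40 ± 0.11) and Mtor (-0.27 ± 0.09). Scaling to total counts raised the median of all genes to 0.21 and turned the medians of the biogenesis, mTORC1 and mitochondrial lists to 0.09, 0.09 and 0.01, so the direction of these 3 lists depends on the scaling. The shares called down in the biogenesis and mitochondrial lists were no larger than the 13.5% over all genes. Of the 14 quality control genes 0 were called by edgeR, 1 had an unadjusted p under 0.05, and Ltn1 had a log2 value of -0.25 ± 0.09. No gene of these lists was called in the fit without WT replicate 1.

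The genotype response of the 78 genes was larger in microglia than in astrocytes when the difference itself was tested. In the fit over 18 libraries, 50 of 78 genes had a larger log2 fold change in microglia and 0 a smaller one, at an adjusted p under 0.05 (edgeR interaction), where 12.5% of all 15550 genes were called in that direction and 8.91% in the other. At an unadjusted p under 0.05 there were 66 and 0. The median difference was 0.71 on the log2 scale, against 0.04 for all genes. The largest called differences were those of Rps28 (1.44 ± 0.38), Rpl35 (1.2 ± 0.19), Rpl10a (1.19 ± 0.19), Rpsa (1.13 ± 0.19), Rpl36a (1.09 ± 0.30) and Rpl24 (1.05 ± 0.16). Rps28 had 2.88, 6.92, 5.07 and 5.12 CPM in WT and 4.39, 3.67, 2.81, 4.59 and 4.7 CPM in APP astrocytes, with overlapping groups and a log2 value of 0.03 ± 0.29. Rpl10a had 7.89, 12, 9.09 and 8.29 CPM in WT and 11, 8.83, 9.89, 9.75 and 8.21 CPM in APP astrocytes, also overlapping, while in microglia it went from 22.4 ± 1.24 to 59.8 ± 5.95 CPM. In counts of calls, 53 genes were called up in both cell types and 21 in microglia but not in astrocytes. This split rests on the astrocyte calls, of which 2 were left without the sex term. The same split over all genes is not given here, so the 21 are not shown to be particular to microglia.

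The number of such differences depended on the scaling and on the mice. It was 17 with scaling to total counts, which moved the median of all genes to -0.21, 6 without the mouse WT 1 and 15 without the mice WT 1 and WT 4. With the mouse as a block it was 52. The counts over all genes in these fits are not given here. How these numbers stand beside the share over all genes is therefore not shown. The median difference stayed above 0 in these fits, with a range from 0.46 to 0.79 when single mice were left out. Without the mouse WT 1, the differences of Rps28, Rpl35 and Rpl36a were 1.35, 0.80 and 0.43, with adjusted p-values of 0.0715, 0.0692 and 0.503 (edgeR). That of Rps28 thus kept nearly its size without passing the test, and that of Rpl36a did not keep it.

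Ribosomal protein mRNA took a larger part of the counts in microglia than in astrocytes in both genotypes. The amount of RNA per cell was not measured. In WT mice, 75 of 78 genes were higher in microglia and 0 lower (edgeR, 18 libraries), where 37.9% of all genes were called higher and 42.3% lower, and the median log2 difference was 1.56 (2.95-fold), against -0.09 for all genes. In APP mice, 76 were higher and 0 lower, where 40.7% of all genes were called higher and 40.4% lower, with a median of 2.28 (4.87-fold). These counts were the same at an unadjusted p under 0.05. Rpl30 and Rps27, which met the count minimum in microglia alone, are included in them, and over the other 76 genes 73 were higher in WT and 75 in APP mice. Among these 76 genes the largest differences in WT were those of Rps29 (2.68 ± 0.14), Rps12 (2.50 ± 0.19), Rpl39 (2.37 ± 0.15), Rps9 (2.34 ± 0.16) and Rplp1 (2.29 ± 0.14). Rps29, a zinc-binding protein of the small subunit, had 176, 192, 213 and 208 CPM in WT microglia and 31.8, 49.7, 40.8 and 33 CPM in WT astrocytes, each on the scale of its own cell type. Those not called in WT were Rpl34 (1.06 ± 0.54), Rps27l (0.11 ± 0.13) and Rps4l (0.15 ± 0.21). Mitochondrial ribosomal protein genes differed in the other direction in WT: 6 of 77 were higher in microglia and 40 lower, with a median of -0.43.

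Levels of different genes were compared after division by transcript length (CPM per kb, on a scale common to the 18 libraries). Rplp1 was highest in every group, with 777 in WT microglia, 1804 in APP microglia, 173 in WT astrocytes and 228 in APP astrocytes. In WT microglia it was followed by Rps29 (549), Rplp2 (513), Rps4x (310) and Rps14 (310), and the median over the 78 genes was 120. In APP microglia the median was 288, in WT astrocytes 42.2 and in APP astrocytes 51.9. The lowest in all 4 groups were Rps27, Rpl34 and Rpl30, with 8.81, 2.76 and 1.74 in WT microglia. Between them the order differed between the cell types: Rpl22 ranked 45 in WT microglia and 9 in WT astrocytes, Rps12 9 and 36, Rps24 23 and 48, and Rps29 2 and 8. Rps4x and Rps14 in WT microglia are neighbours in this order whose levels do not differ at this precision.

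Within the ribosomal protein mRNA pool some shares differed between the genotypes. Rpl41 made up 0.668 ± 0.0473% of the pool's counts in WT and 0.923 ± 0.0665% in APP microglia, Rpsa 1.93 ± 0.0771% and 2.49 ± 0.142%, and Rpl12 1.91 ± 0.0662% and 2.33 ± 0.234%. In the other direction, Rps9 made up 2.55 ± 0.117% and 1.87 ± 0.163%, Rps29 2.58 ± 0.0483% and 2.10 ± 0.119%, and Rps15a 0.941 ± 0.0831% and 0.671 ± 0.0208%. The shares of 2 genes that were not called, Rps4l and Rps27, were 0.124 ± 0.0171% and 0.0369 ± 0.00795% in WT and 0.0408 ± 0.0117% and 0.0159 ± 0.00132% in APP. Rplp1, the most abundant by this share in WT, made up 4.67 ± 0.208% and 4.63 ± 0.137%. These shares are counts and not per length, and no test was made on them.

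Copies of ribosomal protein genes followed their partners in some pairs and not in others. Rps27l, the copy of Rps27, was counted higher than Rps27, whose own level is uncertain as described above. Rps27l had 5.95, 6.76, 8 and 7.41 CPM in WT and 13, 15.6, 15.6, 12.6 and 15.4 CPM in APP microglia (log2 1.05 ± 0.16, adjusted p 0.000341, edgeR). In astrocytes it had 6.64, 9.33, 9 and 8.83 CPM in WT and 12.7, 8.29, 8.42, 7.89 and 7.7 CPM in APP, and its call there (0.39 ± 0.11, adjusted p 0.0376, edgeR) was lost in most of the other fits. These were the fits without any one of WT replicates 1 to 4 or APP replicates 1 to 3, without WT 1 and 4 together, without the count filter, with the replicate block and without the sex term (log2 0.09, adjusted p 0.724). Rpl36al rose with its X-linked partner Rpl36a in microglia (1.18 ± 0.22 and 1.39 ± 0.21), and Rpl22l1 rose with Rpl22 (1.17 ± 0.14 and 1.13 ± 0.09). Rps4l did not follow Rps4x. Rpl7l1, named after Rpl7, fell by 0.44 ± 0.09 on the log2 scale in microglia, from 81.6 ± 5.61 to 61.2 ± 4.68 CPM, while Rpl7 rose by 1.07 ± 0.09. Rpl39l, Rpl3l and Rpl10l, copies known from testis or muscle, had 0 to 17, 0 to 5 and 0 to 1 reads per library, too few for a test.

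Sequence features that the choice of genes did not use were compared with the responses. The median share of a transcript's 50-base stretches found in other annotated genes was 58.7% (GENCODE M21), against 3.01% for mitochondrial ribosomal protein genes, and the median number of pseudogenes sharing such a stretch was 8. By this share, the microglial median log2 fold change was 1.12 for the 10 genes at 25% or less, 1.25 for the 18 genes over 25 to 50%, 1.15 for the 23 genes over 50 to 75% and 1.2 for the 27 genes over 75%. The 4 microglial medians lay within 1.12 to 1.25. In astrocytes the medians were 0.52, 0.55, 0.54 and 0.39 in the same order. The part of shared sequence in the responses was not tested. Exons of another gene overlapped 91.6% of the exonic bases of Rps10, 71.5% of Rpl24 and 68.3% of Rpl35, and without knowing whether the counting used strand, reads of these partners cannot be told apart. The 13 genes with a C and at least 4 pyrimidines at an annotated start had a microglial median of 1.09 (12 called), and the other 44 with a promoter window had 1.19 (43 called). Some of those 44 have a run that opens within 5 bases of the annotated start, such as Rpl27a (20 bases) and Rpl13a (14 bases). The groups therefore do not separate mRNAs with the TOP motif from mRNAs without it.

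Ribosomal protein transcripts are short, with a median length of 705 bases against 2050.5 for all symbols. Other genes with transcripts under 500 bases had a median log2 fold change of 0.008 in microglia (225 genes, 19.56% called up). Those of 500 to under 1000 bases had 0.30 (35.71% called up), and those of 4000 bases or more had -0.07 (3695 genes). The ribosomal protein genes had medians of 1.11 under 500 bases (18 genes), 1.16 at 500 to under 1000 bases (43 genes) and 1.2 at 1000 to under 2000 bases (15 genes). In astrocytes the other genes of 500 to under 1000 bases had a median of -0.01 and the ribosomal protein genes of that length 0.49. At each of these lengths the ribosomal protein genes stood above the other genes of the same length in both cell types.

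**Figure D5:**
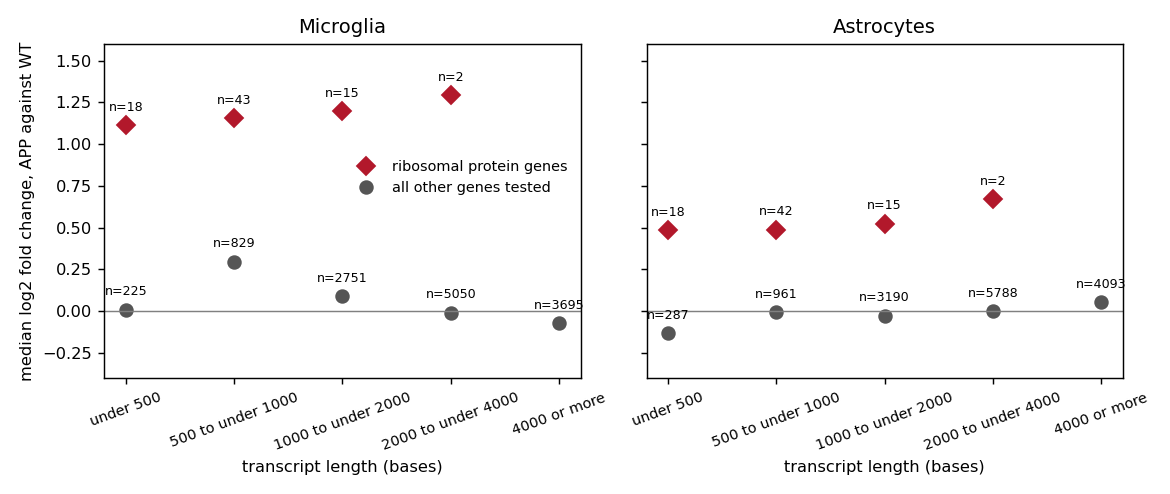
Median log2 fold change, APP against WT, by transcript length in microglia and astrocytes, for the ribosomal protein genes (red diamonds) and all other genes tested (grey circles); n is the number of genes in each class. In microglia the ribosomal protein genes of 500 to under 1000 bases lie at 1.16 and the other genes of that length at 0.30.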

How the data were processed

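RNA from sorted microglia and astrocytes was sequenced in 18 libraries. The submitters' processing notes name the build mm10 with STAR 2.7.3a, Trimmomatic 0.39, FastQC 0.11.8, limma 3.46.0, edgeR 3.32.1 and SAMtools 1.9. Not given in the sources used here were library preparation, counting tool, annotation, use of strand and handling of reads with several matches. The deposited tables used here, 1 per cell type, hold raw read counts per gene symbol from the authors, and their names say that outliers had been left out. The deposited normalized tables hold log2 values from the authors and were not used.

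The counts were fitted with edgeR 4.0.16 in R 4.3.3, separately for each cell type, as APP against WT with sex as covariate. Genes were kept by filterByExpr (minimum count 10, minimum total 15), libraries scaled by TMM, tested by the quasi-likelihood F-test and adjusted over all genes by Benjamini-Hochberg, with calls at an adjusted p under 0.05. One fit over 18 libraries, with sex within cell type, tested the difference between the responses and between the cell types. Values in CPM use TMM-scaled totals within a cell type, and values per kb use a scale over 18 libraries and the shortest principal GENCODE M21 transcript. The step from fit to calls was tested on simulated data, with the same spread for every gene. At a simulated log2 change of 1, 99% of changed genes were called in each cell type and 59% in the 18-library fit. At 0.5 the shares were 24% in microglia, 19% in astrocytes and 5% in the 18-library fit. The spread of the real genes differs, so these shares need not hold for them.

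The alternatives were DESeq2 1.42.0, limma 3.58.1 (voom), scaling to total counts, TMM without the 78 genes, no filter, at least 50 counts in 4 libraries, no sex covariate, a replicate block, each library left out and, chosen after seeing the data, WT 1 and 4 left out together. The microglia and astrocyte libraries of a mouse come from 1 animal, by the mouse number in the library names, and their deviations from the group means correlated at r of 0.0587 to 0.29. The 78 genes, the lists and the tests were chosen with earlier results of these data known. Named genes are the 10 largest called rises and falls of the 78 in each cell type, the 6 largest differences between cell types and responses, the stalk, X-linked and copied genes, and the first 3 called of each list (the first 2 by p where none was called). Other genes named were chosen after their values were seen, among them Rps15a, Eef1a1, Eef2, Tpt1, Larp1, Rps14, and the genes not called. A few genes that this rule names are not reported here and stay in all counts and medians.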

Additional observations from a re-analysis of the deposited data

Results flagged for a closer look

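Among 148 groups of libraries examined for a single library far from the others, 9 were flagged, and chance alone flags about 1 in 20. In 8 of them the library was APP replicate 1 of the astrocytes, the only APP male, which stood above the other 4 APP libraries. It had 54.2 CPM for Rpl5 (others 38.7 to 43.0), 136 CPM for Rpl7 (others 109 to 116), 102 CPM for Rpl9 (others 73.7 to 77.8) and 36.6 CPM for Rps16 (others 24.9 to 26.3). It also had 24.5 CPM for Rps25 (others 14.4 to 16.7), 12.7 CPM for Rps27l (others 7.70 to 8.42), 159 CPM for Rps4x (others 115 to 120) and 63.7 CPM for Rps6 (others 43.0 to 48.8). The 8 genes are not independent of each other, since they come from 1 library. The ninth was Rpl10a in WT microglia, where replicate 3 had 24.2 CPM and the others 21.5 to 21.9.

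A difference between the responses of microglia and astrocytes passed the interaction test in 50 of the 78 genes. The log2 difference was 1.44 for Rps28, 1.2 for Rpl35, 1.19 for Rpl10a, 1.13 for Rpsa, 1.09 for Rpl36a and 1.05 for Rpl24, each as microglia minus astrocytes. The WT replicate 1 mouse, on which this count depends, is named beside the result above.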

How the results depend on the processing

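The microglial result kept its direction and between 71 and 74 calls in every alternative fit, including the replicate block (74 calls). Its median log2 fold change was 1.40 without APP replicate 1, 0.92 without WT replicate 1 and 0.93 without WT 1 and 4 together, and 0.92 to 1.40 over all single libraries left out. With the sex term, a fit without WT replicate 1 sets 1 APP male against the WT males and a fit without APP replicate 1 sets the APP females against 1 WT female, and the lone mouse is assumed to vary like the others. The astrocyte calls, 53 in the main fit, were 2 without the sex covariate, 7 with the replicate block, 21 without APP replicate 1, 0 without WT replicate 1 and 0 without WT 1 and 4 together, with 0 to 60 over all single libraries left out. The astrocyte median was 0.44 to 0.56 over those fits, 0.52 with the block, 0.29 without the sex covariate and 0.33 without WT 1 and 4 together. The replicate numbers of WT and APP mice pair nothing, with correlations of -0.289 to 0.111 between same-numbered libraries, so the block spends degrees of freedom on numbers alone. The 50 differences between the responses became 17 with scaling to total counts, 15 without WT 1 and 4 together and 6 without WT replicate 1 (6 to 57 over single mice left out), and 52 with the mouse as replicate block. The median of microglia against astrocytes in APP mice was 1.92 with scaling to total counts, where the median of all genes was -0.36. Left out of the total, the 10 largest other rows raised the share of counts to 0.919% in WT microglia, 2.02% in APP microglia and 0.481% in APP astrocytes. No count or median of the 78 genes reversed. The astrocyte medians of the biogenesis, mTORC1 and mitochondrial lists changed sign with scaling to total counts, and the microglial mTORC1 median went from 0.05 to -0.04 without the sex covariate. The comparison of cell types kept 73 to 77 calls in both genotypes in all fits. Rpl30, Rpl34 and Rps27 had few reads, and 4 WT against 5 APP mice with 1 mouse of the rarer sex each limit the rest.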
